A study of Mus musculus with 6 samples.

Results

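The 9 genes described here encode the urokinase branch of plasminogen activation, 3 serpins of clade B and 3 coagulation proteins, in macrophages sorted from skin wounds of young and aged mice. They are Plau, Plaur, Anxa2, Serpinb2, Serpinb9, Serpinb6a, F3, F10 and Tfpi2. The members were picked as a functional group with results already known, that is, partly selected on measured CPM values and log2 fold changes of aged against young samples, so their own differences between the ages are given as a description, without p-values, and where a member is said to be called this places it among all genes and is not independent evidence. All 9 were found by symbol among the 15168 genes of the deposited count table, and 8 of them passed the filter on low counts that left 11878 genes for testing. Tfpi2 did not pass it, because its counts were low in all samples but aged B (0, 0 and 1 in young A, B and C, 3, 14 and 5 in aged A, B and C).

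The samples were 3 from young and 3 from aged wild-type C57BL/6J females (C57BL6/J in the sample characteristics), labelled 12 weeks and 24 months old. Neither group carried a transgene, and per the methods mice were wounded under isoflurane and given buprenorphine for pain. Each mouse received 2 full-thickness wounds of 10 mm on the back, and the cells were taken on Day 3. Live CD45+ CD11b+ F4/80+ CD64+ cells were sorted, their RNA was amplified with the SMART-Seq kit for low input, and paired-end libraries were sequenced. Per the methods, Ly6G+ cells were not excluded in the sort, so that a minor part of the sorted cells may be neutrophils. The 3 samples of each age carry the set letters A, B and C. What the set letter stands for, whether a sample is 1 mouse or a pool, and where the mice of each sample were housed are not given, so that p-values measure only the spread between these samples, which may be technical.

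Plasminogen is a circulating zymogen that plasminogen activators cut into plasmin, the protease that dissolves fibrin and helps cells migrate through wound matrix. Urokinase, the product of Plau, does this at the cell surface when it is bound to its receptor, the product of Plaur, while annexin A2 forms a surface docking site for plasminogen with S100A10. Serpins are inhibitors that trap proteases irreversibly, and those of clade B act largely inside cells. Tissue factor, encoded by F3, starts coagulation at the surface of activated monocytes and leads to the activation of factor X, encoded by F10.

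Total counts assigned to genes ran from 15270103 to 17927483 per sample, and 1 count corresponded to between 0.0553 and 0.0701 CPM (counts relative to the TMM-scaled library size). All 9 macrophage genes checked, among them Lyz2 and Cd68, were detected in every sample. Their sum was 28143 to 43193 CPM in young and 20448 to 25630 CPM in aged samples, without overlap, and most of it was Lyz2. The genes of this list moved in both directions, with a median log2 fold change of -0.04 and 0 called. Of the sort markers, Adgre1 (F4/80) was lower and Itgam (CD11b) higher in every aged than in every young sample, with log2 fold changes of -0.69 and 0.99 (edgeR adjusted p = 0.0292 and 0.00735). Transcripts of other cells were present at low to moderate levels. The 13 neutrophil markers in the table summed to between 717 and 1217 CPM in young against between 926 and 1584 CPM in aged samples, led by S100a9 and Mmp8, with Cxcr2 and Cd177 called higher. The Ly6g transcript was at 6.14 to 10.9 CPM in young against 6.18 to 9.60 CPM in aged samples. The 10 keratinocyte markers in the table, with Krt15 and Trp63 not listed, summed to 2.25 to 2.76 CPM in young samples and to 12.2, 185 and 8.40 CPM in aged A, B and C. In aged B they were led by Krt14 and Krt17, whereas Cdh1 was higher in all aged samples (log2 fold change 2.41, edgeR adjusted p = 0.00195). The 8 fibroblast markers, led by Col3a1 and Dcn, summed to 25.5 to 41.7 CPM in young samples and to 13.2, 122 and 37.5 CPM in aged A, B and C. The 7 endothelial markers summed to 12.0 to 12.7 CPM in young and 25.9 to 31.5 CPM in aged samples through Pecam1 alone (log2 fold change 1.69, edgeR adjusted p = 0.0022), while Kdr and Vwf had lower means in aged samples and Cdh5 was at 0 to 0.704 CPM. The 4 platelet markers in the table summed to 1124 to 1699 CPM in young samples and to 1417, 3910 and 2339 CPM in aged A, B and C, nearly all of it Pf4 and Ppbp. The mean of Pf4 was lower in aged samples (log2 fold change -0.31, edgeR adjusted p = 0.477). Ppbp was higher in every aged sample (log2 fold change 2.02, edgeR adjusted p = 0.00967), and the defining platelet genes Itga2b and Gp1bb lay between 0 and 0.763 CPM. Mast cell markers, led by Cpa3 and Tpsb2, summed to 26.5 to 96.2 CPM in young samples and to 67.2, 1.02 and 0.741 CPM in aged A, B and C. T and NK cell markers, led by Gzmb and Nkg7, summed to 3.57 to 6.08 CPM in young samples. In aged A, B and C they summed to 13.3, 3.63 and 2.16 CPM. The part of these markers' cells in the values of the members was not tested. In bulk RNA, a change in the number of cells of a type and a change in RNA per cell cannot be told apart.

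For the 5 tested members whose groups were separated, the sequence in front of the start site is shown so that the elements in it can be compared. RefSeq promoter windows on GRCm38.p6 were matched for 8 of the 9 members, and Plau was not matched. Each sequence below reads 5′ to 3′ on the coding strand (+ for all 5 genes) and ends before the first annotated base of the gene, and capitals mark the TATA and AP-1 elements only, leaving other motifs in lower case. In Serpinb2 the capitals mark a TATA box (TATAAA), and in F3, Plaur and Anxa2 an AP-1 element (TGACTCA, or TGAGTCA where it reads on the opposite strand), while F10 held neither.
Serpinb2, chr1:107511173-107511422: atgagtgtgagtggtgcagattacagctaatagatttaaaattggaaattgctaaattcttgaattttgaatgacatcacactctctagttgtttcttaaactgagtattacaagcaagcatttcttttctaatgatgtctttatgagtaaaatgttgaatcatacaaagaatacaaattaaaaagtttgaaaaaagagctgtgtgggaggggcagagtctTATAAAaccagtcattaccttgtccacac
F3, chr3:121723287-121723536: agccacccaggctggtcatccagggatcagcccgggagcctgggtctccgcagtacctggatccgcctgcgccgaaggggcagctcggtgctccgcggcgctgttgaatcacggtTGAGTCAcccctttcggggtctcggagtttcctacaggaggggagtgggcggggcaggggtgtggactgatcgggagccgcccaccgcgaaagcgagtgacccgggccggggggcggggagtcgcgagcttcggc
F10, chr8:13037058-13037307: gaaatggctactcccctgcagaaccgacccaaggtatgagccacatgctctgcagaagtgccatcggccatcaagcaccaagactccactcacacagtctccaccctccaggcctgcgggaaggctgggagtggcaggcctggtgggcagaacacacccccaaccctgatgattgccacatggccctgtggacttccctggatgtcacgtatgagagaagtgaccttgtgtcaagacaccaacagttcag
Plaur, chr7:24462233-24462482: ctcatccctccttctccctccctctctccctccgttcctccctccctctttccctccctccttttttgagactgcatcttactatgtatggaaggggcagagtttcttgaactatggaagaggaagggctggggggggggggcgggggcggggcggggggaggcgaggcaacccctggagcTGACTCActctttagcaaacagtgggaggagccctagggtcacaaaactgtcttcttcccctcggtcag
Anxa2, chr9:69453433-69453619: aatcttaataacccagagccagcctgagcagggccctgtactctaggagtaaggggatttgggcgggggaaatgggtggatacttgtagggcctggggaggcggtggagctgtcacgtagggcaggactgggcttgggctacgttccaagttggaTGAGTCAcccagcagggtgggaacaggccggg

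The TATA box of Serpinb2 lay at positions -29 to -24 from the first of its RefSeq starts. Anxa2 held a TATAAA at -17 to -12, within the annotated gene and beyond the printed stretch. The AP-1 element lay at -135 to -129 in F3, at -69 to -63 in Plaur and at -95 to -89 in Anxa2, so that 3 of the 8 members with a window held one. AP-1 was present in 4.46% and TATAAA in 12.4% of all 32851 promoter windows of 250 bases searched in the same way, on both strands. A CRE (TGACGTCA, 1.55% of windows) and the NF-κB consensus (3.90%) were not found in any member window. CCAAT (33.8% of windows) was present in Serpinb2, Tfpi2 and Serpinb6a, and GAGGAA, the core of PU.1 elements (23.3%), in Plaur and Tfpi2. F10 and Serpinb9 held none of the 6 motifs. Serpinb2, Tfpi2 and Serpinb6a had more than 1 window, so that presence per member is not the same measure as the percentage of windows. The CCAAT of Serpinb6a and the GAGGAA of Tfpi2 lay only before start sites inside the annotated gene. A match of letters is a description and does not show that a factor was bound there.

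Among the 8 tested members, Serpinb2, Plaur, F3 and F10 were called higher in aged Day 3 wound macrophages, with more than a 2-fold change and an adjusted p-value below 0.05, and 0 were called lower. Of all tested genes, 8.79% were called, 4.59% higher and 4.20% lower. Since the members were selected with this comparison known, nothing is read from their share. Every aged sample lay above every young sample for these 4 members, for Anxa2 and for the untested Tfpi2, an arrangement shown by 19.2% of the tested genes (19.0% for the opposite order). Plau, Serpinb9 and Serpinb6a had overlapping groups. The median log2 fold change of the 8 members was 0.86, against -0.02 over all tested genes.

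**Figure D1:**
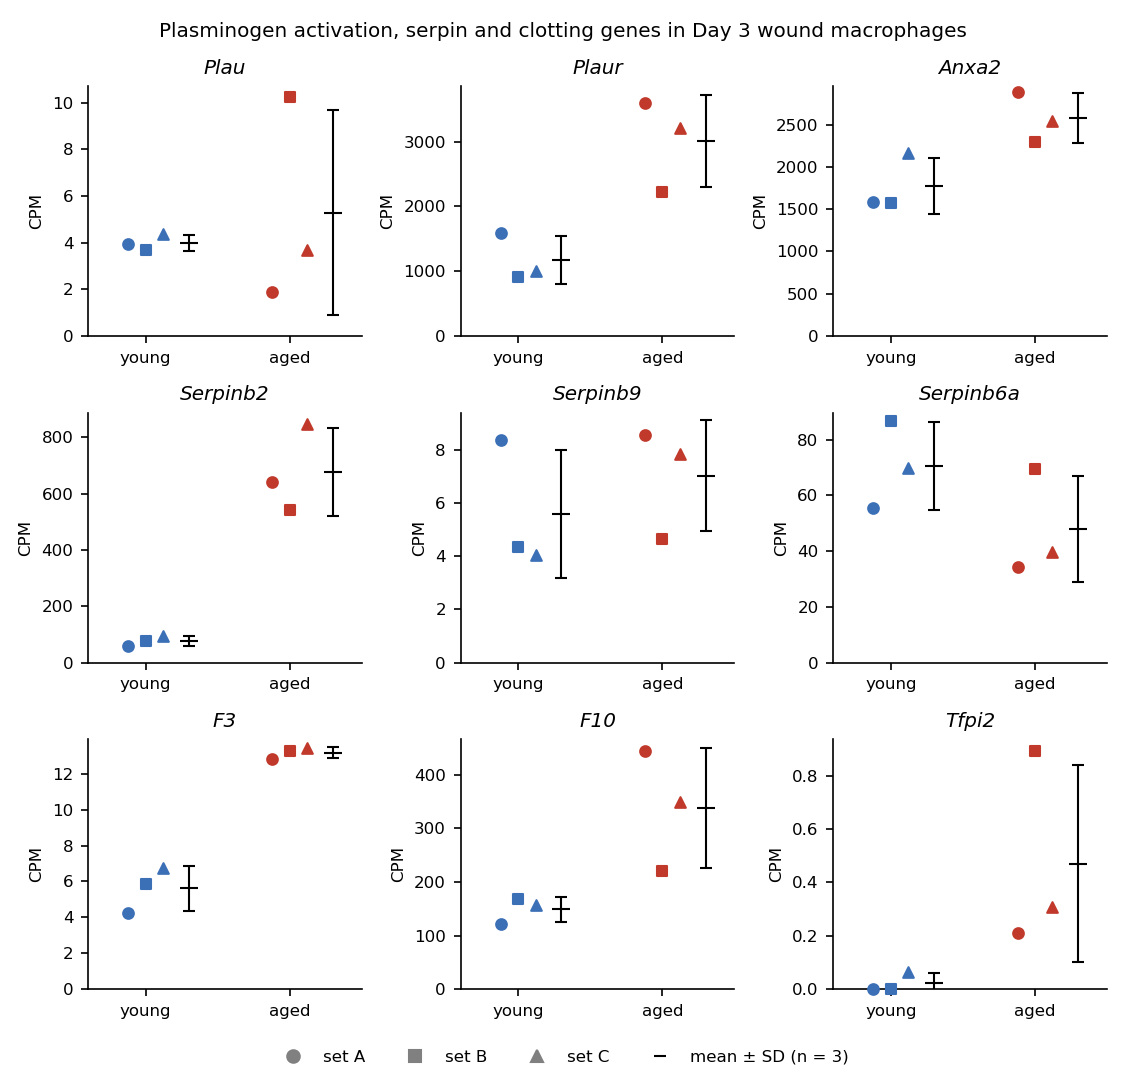
Expression of the 9 members in each sample in CPM (linear axes from 0, a separate scale for each gene), with young samples in blue, aged samples in red, a marker shape for each set letter, and bars for the mean ± SD (n = 3; the lower end of a bar below 0 is not drawn). Serpinb2 is at 57.7 to 92.7 CPM in young against 541 to 848 CPM in aged samples, and the mean of Plau in aged samples is carried by aged B at 10.3 CPM.

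The plasminogen activator and its receptor had different profiles. Plau, on the plus strand at chr14:20836660-20843385 in mm10, was scarce. It was measured at 3.93, 3.70 and 4.36 CPM in young A, B and C and at 1.89, 10.3 and 3.71 CPM in aged A, B and C, which corresponds to 27 to 161 counts per sample. Aged A was the lowest and aged B the highest of all 6 samples, and the groups overlapped. Means were 3.99 ± 0.337 CPM in young against 5.28 ± 4.40 CPM in aged samples (SD, n = 3). The log2 fold change was 0.41 (standard error, SE, 0.50, 95% interval -0.70 to 1.51), and without aged B it turned to -0.49. Aged B was also the sample with the highest keratinocyte and fibroblast marker sums, and the part of these cells in the Plau value was not tested.

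Plaur, at chr7:24462484-24475968 on the plus strand, was among the most abundant transcripts, at rank 67 of the tested genes by mean CPM. Young A, B and C had 1593, 915 and 999 CPM, and aged A, B and C had 3593, 2216 and 3205 CPM. Every aged sample exceeded the highest young sample. Mean expression was 1169 ± 370 CPM in young against 3005 ± 710 CPM in aged samples, a ratio of 2.57. The log2 fold change was 1.36 (SE 0.26, 95% interval 0.78 to 1.95) and ranged from 1.22 to 1.66 when each sample was left out in turn. Without young C, Plaur was no longer called at a log2 fold change of 1.26, in a fit that called 213 genes in all.

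Anxa2, at chr9:69453620-69491795 on the plus strand, was of similar abundance (rank 63). It had 1584, 1578 and 2161 CPM in young A, B and C and 2886, 2298 and 2538 CPM in aged A, B and C. The groups were separated, although young C and aged B lay close to each other. From 1774 ± 335 CPM in young, its mean was higher at 2574 ± 295 CPM in aged samples. Its log2 fold change of 0.54 (SE 0.20, 95% interval 0.10 to 0.98) was below the 2-fold threshold, and Anxa2 was not called with or without that threshold. S100a10, its partner in the plasminogen docking complex, was at 488 ± 116 CPM in young against 522 ± 47.6 CPM in aged samples (log2 fold change 0.10, SE 0.20, adjusted p = 0.773 in the edgeR quasi-likelihood test, Benjamini-Hochberg adjusted).

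Of the serpins, Serpinb2 differed most between the ages. It encodes plasminogen activator inhibitor-2, which inhibits urokinase and tissue plasminogen activator and is known as an inducible product of activated macrophages. The gene lies at chr1:107511423-107535478 on the plus strand. The young samples A, B and C had 57.7, 76.8 and 92.7 CPM (1043 to 1404 counts). In aged A, B and C, 641, 541 and 848 CPM were measured (8491 to 13728 counts). The lowest aged sample was well above the highest young sample, with aged B the lowest of the aged samples. The mean was 75.7 ± 17.5 CPM in young against 676 ± 157 CPM in aged samples, a ratio of 8.93. A log2 fold change of 3.16 (SE 0.25, 95% interval 2.62 to 3.70) resulted, the largest of the 8 tested members, and it stayed between 2.97 and 3.33 with each sample left out in turn. The downstream end of Serpinb2 shares the interval chr1:107529003-107535478 with Serpinb10 on the same strand, but Serpinb10 held only 12 to 40 counts per sample.

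Serpinb9 and Serpinb6a lie in the clade B cluster of chromosome 13 and inhibit other proteases. Serpinb9, at chr13:33003250-33017957 on the plus strand, encodes an inhibitor of granzyme B that protects cells from their own cytotoxic granules. Its expression was 8.35, 4.34 and 4.03 CPM in young A, B and C and 8.55, 4.65 and 7.84 CPM in aged A, B and C. Young A was as high as the aged samples and aged B as low as the young ones, so that the groups overlapped. Its mean was 5.57 ± 2.41 CPM in young against 7.01 ± 2.08 CPM in aged samples, for a log2 fold change of 0.33 (SE 0.35, 95% interval -0.44 to 1.09).

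Serpinb6a, which encodes an intracellular inhibitor of cathepsin G, was the only tested member with a negative log2 fold change. It lies at chr13:33917918-34002794 on the minus strand. In young A, B and C, 55.3, 86.8 and 69.8 CPM were measured, and in aged A, B and C, 34.3, 69.5 and 39.8 CPM. Aged A and aged C were below all young samples, whereas aged B reached the level of young C. Means of 70.6 ± 15.7 CPM in young against 47.9 ± 18.9 CPM in aged samples gave a log2 fold change of -0.56 (SE 0.27, 95% interval -1.16 to 0.03), which ran from -0.92 (without aged B) to -0.37 (without aged A) with each sample left out. Nqo2 and Ripk1 overlap Serpinb6a on the opposite strand with 138 to 428 and 852 to 1387 counts per sample. The amplification kit does not mark strand, so that reads of overlapping exons cannot be told apart.

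The gene of the initiator of coagulation was low in both ages. F3, at chr3:121723537-121735048 on the plus strand, had 4.26, 5.87 and 6.74 CPM in young A, B and C (at least 77 counts each) and 12.8, 13.2 and 13.4 CPM in aged A, B and C (183 to 217 counts). The aged samples lay within 1 CPM of each other and far from the young ones. Mean levels were 5.62 ± 1.26 CPM in young against 13.2 ± 0.302 CPM in aged samples. The log2 fold change of F3 was 1.23 (SE 0.23, 95% interval 0.71 to 1.74; 1.07 to 1.38 with each sample left out).

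F10, at chr8:13037308-13056676 on the plus strand, was expressed well above F3. It had 122, 168 and 156 CPM in young A, B and C and 443, 220.1 and 349 CPM in aged A, B and C. No aged sample fell into the young range, but aged B was closer to the young samples than to aged A. The means were 149 ± 23.9 CPM in young against 337 ± 112 CPM in aged samples, a ratio of 2.27. For F10, the log2 fold change was 1.18 (SE 0.25, 95% interval 0.63 to 1.74), and 0.94 to 1.43 with each sample left out. F10 was no longer called without young C (1.22), aged A (0.94) or aged C (1.16).

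Tfpi2, which encodes a secreted Kunitz-type inhibitor of plasmin and other serine proteases, was near the detection limit. The gene lies at chr6:3962595-3988919 on the minus strand. It had 0, 0 and 1 counts in young A, B and C and 3, 14 and 5 counts in aged A, B and C. A count of 0 in young A or B allows up to 3 counts. The 22 counts of the aged against the 1 count of the young samples correspond to a ratio of 24.0 after scaling, with an exact 95% interval of 3.87 to 989 that covers counting error only. Aged B, with the highest keratinocyte marker sum, held 14 of the 22 counts, and the part of those cells was not tested.

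**Figure D2:**
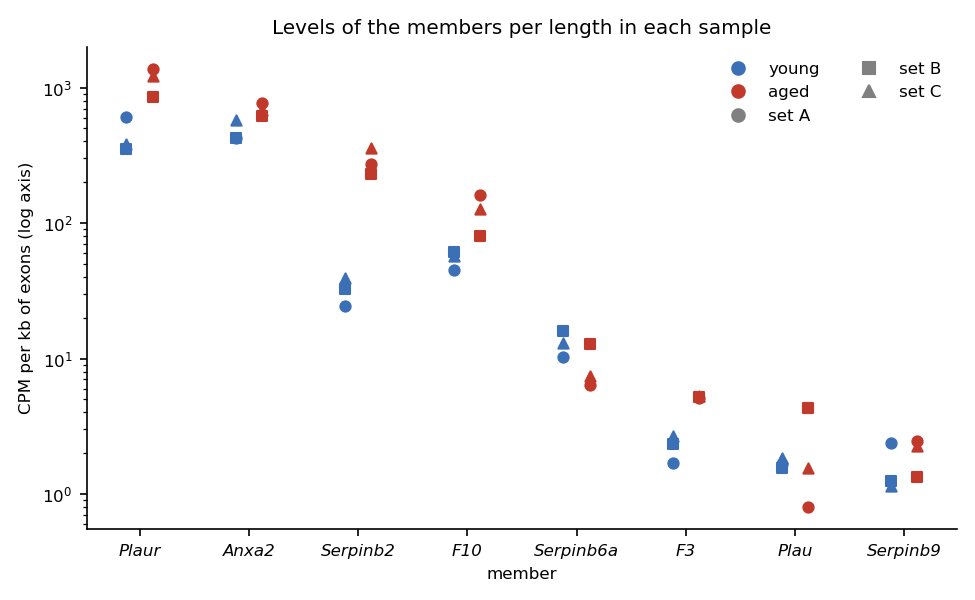
Expression of the 8 tested members in CPM per kilobase of exons (log axis) in every sample, with young samples in blue to the left and aged samples in red to the right of each gene, and a marker shape for each set letter. Plaur and Anxa2 are at the top, at 349.7 to 1373 CPM per kilobase, and Plau and Serpinb9 at the bottom, at 0.799 to 4.33 CPM per kilobase.

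Levels of different genes were compared per length of their exons (GENCODE vM21). In young samples, Anxa2 at 476 ± 89.8 and Plaur at 447 ± 141 CPM per kilobase differed by less than their spread, followed by F10 at 54.5 ± 8.76, Serpinb2 at 32.2 ± 7.47 and Serpinb6a at 13.1 ± 2.91 CPM per kilobase. Below them, F3 at 2.22 ± 0.498, Plau at 1.69 ± 0.142 and Serpinb9 at 1.60 ± 0.690 CPM per kilobase overlapped one another. The order changed at the top in aged samples. Plaur led at 1148 ± 271, ahead of Anxa2 at 690 ± 79.2, Serpinb2 at 288 ± 66.7 and F10 at 124 ± 41.0 CPM per kilobase, so that Serpinb2 lay below F10 in the young and above F10 in the aged samples. Serpinb6a at 8.85 ± 3.50 and F3 at 5.21 ± 0.119 CPM per kilobase came next in the aged samples, with all values of Serpinb6a above those of F3. Plau at 2.23 ± 1.86 and Serpinb9 at 2.01 ± 0.595 CPM per kilobase were again lowest apart from Tfpi2 and overlapped. Serpinb6a has 17 annotated transcripts, so that its length is the least certain.

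Ratios within a sample show how the members stood to each other. Serpinb2 exceeded its target protease Plau by 14.8 to 21.4 times per kilobase in young samples and by 53.1 to 341 times in aged samples, without overlap. The aged range is wide because aged B, the lowest, had the highest Plau. The ratio of Plaur to Plau ran from 207 to 367 in young samples and was 1718, 196 and 782 in aged A, B and C, with aged B below all young samples. Inhibitor relative to receptor, Serpinb2 to Plaur, was 0.0403 to 0.103 in young and 0.199 to 0.295 in aged samples. Anxa2 to S100a10 was 1.01 to 1.41 in young and 1.48 to 1.73 in aged samples.

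In coagulation, F10 stood at 1.82 to 2.44 times the level of F7 per kilobase in young samples and at 3.84 to 6.77 times in aged samples. F7 encodes the protease that binds tissue factor, and F7 itself did not pass the test (log2 fold change -0.23, adjusted p = 0.491 in the edgeR quasi-likelihood test). The ratio of F3 to Tfpi, its inhibitor, was 0.867 to 1.43 in young and 6.33 to 7.45 in aged samples. These ratios combine values used in the choice of the members and were given no test.

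**Figure D3:**
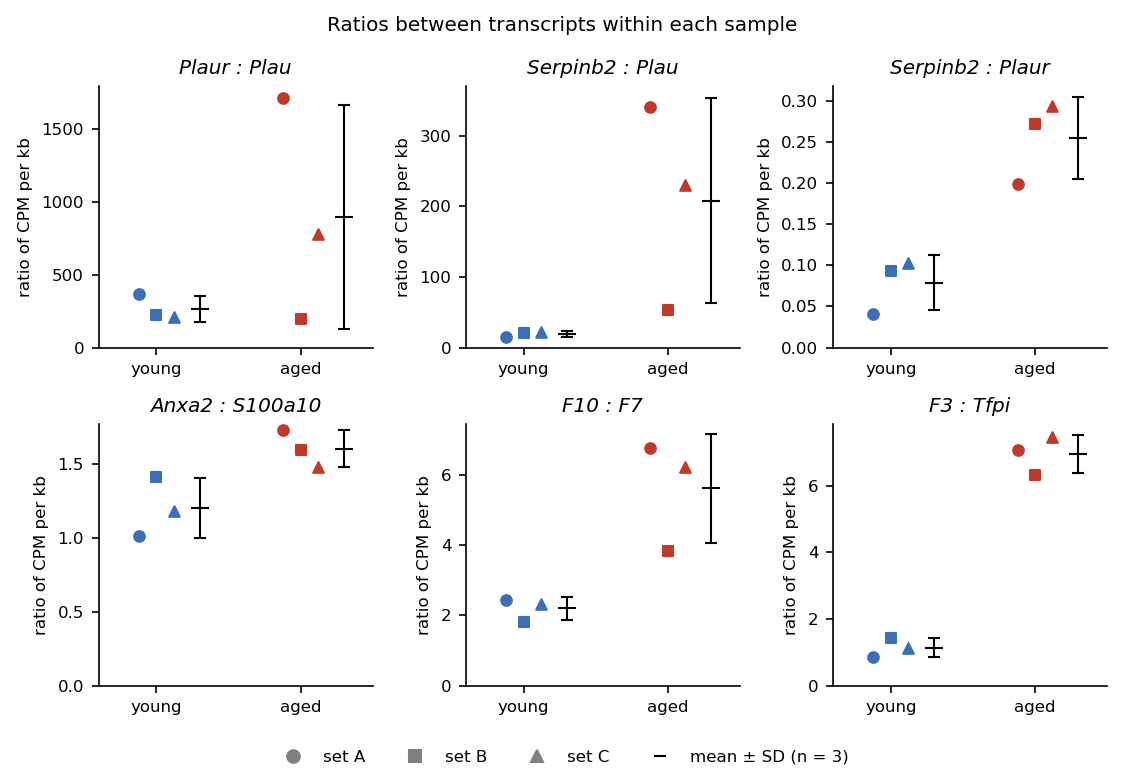
Ratios of CPM per kilobase between pairs of transcripts in each sample (linear axes from 0), with young samples in blue, aged samples in red, a marker shape for each set letter and bars for the mean ± SD (n = 3). The ratio of Plaur to Plau overlaps because aged B is at 196. Anxa2 to S100a10 is only just apart, at up to 1.41 in young and from 1.48 in aged samples. The ratios combine values used in the choice of the members, so that nothing is read from the separation of the groups.

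Across the 6 samples, the shapes of the profiles were compared as the root mean square difference of log2 CPM after centring each gene on its mean. F3 and F10 were the closest pair of members (0.33), followed by F3 and Anxa2 (0.38), F10 and Anxa2 (0.40) and Plaur and F10 (0.42). Serpinb2 was far from all other members (at least 0.98), as its range of 3.87 on the log2 scale was the widest. Plau and Serpinb6a were nearest to each other (0.56), both with aged A at the lower end and aged B high among the aged samples.

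The genes most like each member were sought among 6588 tested genes with a mean of at least 10 CPM. For Serpinb2 they were Mmp13, which encodes collagenase-3 (0.32), and Mfsd4b3-ps (0.36). Mmp13 was at 34.3 ± 3.47 CPM in young against 227 ± 77.5 CPM in aged samples. For Plaur they were Smox, which encodes spermine oxidase (0.06), and Slc16a3, which encodes a lactate transporter (0.10), and for F10 Cyp4f18 (0.09) and Fpr2 (0.12). Fcrlb (0.14) and Rab32 (0.16) were nearest to F3, and Gsap (0.04) and Ms4a8a (0.08) to Anxa2. Plau was most like Fcna (0.19) and Sparc (0.30), with a Sparc mean of 29.5 ± 32.4 CPM in aged samples. The nearest genes to Serpinb9 were Zfp954 (0.08) and Tspan13 (0.12), and those to Serpinb6a were Prmt7 (0.11) and Wwp1 (0.13). These distances describe 6 samples that include both ages and were not tested.

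Other genes of the same pathways were taken from lists drawn up with earlier results of these data known, so that their counts are a description and not independent evidence. Of 135 listed genes, 75 were in the table and 58 were tested. Of the 58, 11 were called higher and 3 lower in aged samples. Of all tested genes, 4.59% were called higher and 4.20% lower. In 22 of the 58 every aged sample lay above the young ones, and in 7 every aged sample lay below them. These orders were shown by 19.2% and 19.0% of all tested genes. The same shares are the background for the counts of each list below. The median log2 fold change of the 58 was 0.24, against -0.02 over all tested genes. The adjusted p-values below are from the quasi-likelihood test of edgeR, adjusted by the Benjamini-Hochberg method over 11878 genes, and the range after each is that over the 6 fits that each left out 1 sample.

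**Figure D4:**
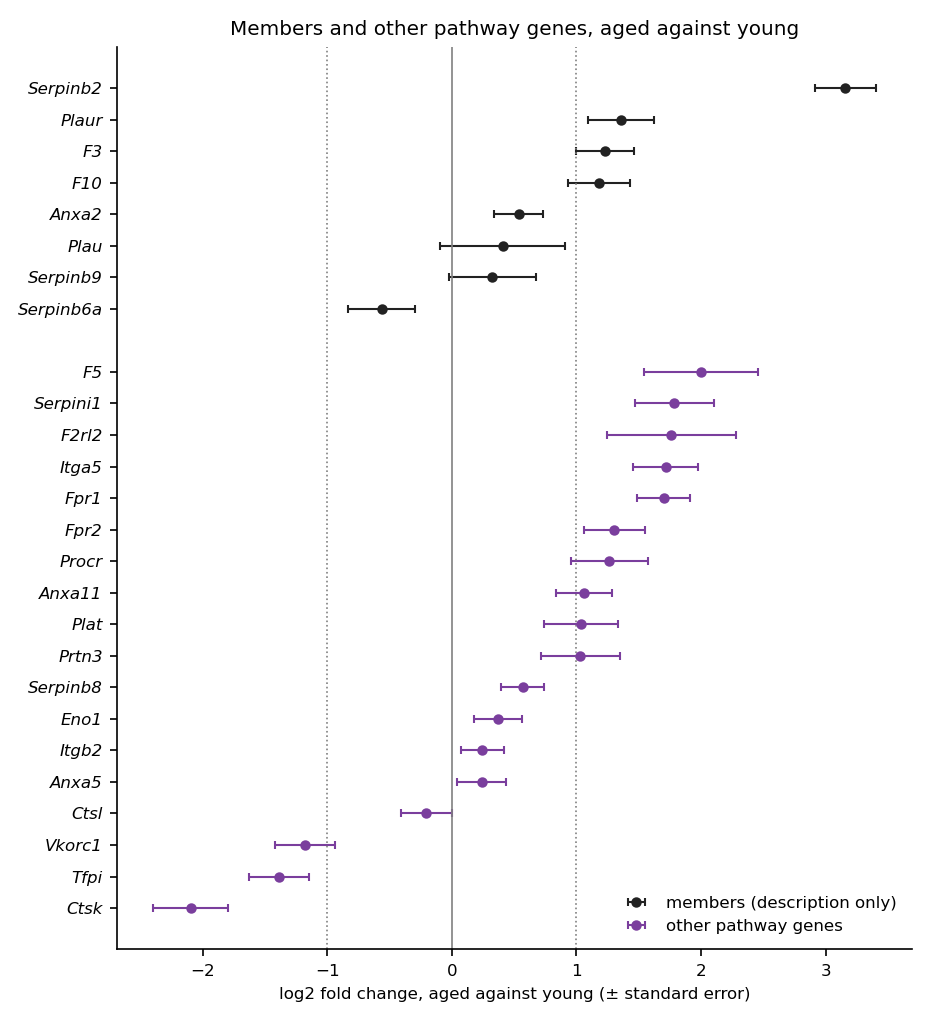
Log2 fold change of aged against young samples with its standard error (horizontal bars) for the 8 tested members (black, shown as a description) and for pathway genes named by rule (purple), with dotted lines at a 2-fold change. Serpinb2 lies furthest to the right at 3.16 and Ctsk furthest to the left at -2.10.

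In the plasminogen system, 3 of 10 tested genes were called higher and 0 lower. Serpini1, which encodes neuroserpin, an inhibitor of tissue plasminogen activator, rose from 4.87 ± 2.27 to 16.8 ± 1.74 CPM (log2 fold change 1.79, SE 0.32, edgeR adjusted p = 0.00846, 0.0055 to 0.0568). Plat, the gene of tissue plasminogen activator, rose from 2.64 ± 0.638 to 5.44 ± 0.812 CPM (log2 fold change 1.04, SE 0.30, edgeR adjusted p = 0.0379, 0.023 to 0.140). Plat and the gene of its inhibitor neuroserpin thus both rose, at low levels. Eno1, whose product also binds plasminogen, was the most abundant of the list and was not called (log2 fold change 0.37, edgeR adjusted p = 0.205). The plasminogen receptor gene Plgrkt, at 63.2 ± 5.26 CPM in young against 63.3 ± 14.5 CPM in aged samples, did not pass the test (edgeR adjusted p = 0.994). Plasminogen itself (Plg) and its plasma inhibitor gene Serpinf2 were not in the table, which lists genes with at least 10 counts in all.

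Of the 18 tested genes of coagulation and its inhibitors, 3 were called higher and 2 lower. F5, the gene of the cofactor of factor X, rose from 2.12 ± 1.62 to 8.56 ± 2.19 CPM (log2 fold change 2.00, edgeR adjusted p = 0.0193, 0.0019 to 0.0929). F2rl2, a thrombin receptor gene, had fewer than 4 CPM in every sample (log2 fold change 1.76, edgeR adjusted p = 0.0419, 0.0296 to 0.189). Procr, the gene of the endothelial protein C receptor, rose from 23.9 ± 11.9 to 57.6 ± 12.8 CPM (log2 fold change 1.27, edgeR adjusted p = 0.0232, 0.0019 to 0.107). Procr is also expressed by endothelial cells, whose tested markers had a median log2 fold change of -0.38, with only Pecam1 called, and their part in the Procr value was not tested. A gene of a clotting cofactor and one of an anticoagulant receptor were thus both called higher. Tfpi, the inhibitor of tissue factor and factor X, fell from 10.6, 8.86 and 12.9 CPM in young to 3.92, 4.52 and 3.89 CPM in aged samples (log2 fold change -1.39, SE 0.24, edgeR adjusted p = 0.0081, 0.00775 to 0.0549). Vkorc1, which recycles the vitamin K needed to mature factor X, fell from 20.5 ± 3.24 to 9.08 ± 2.57 CPM (log2 fold change -1.18, edgeR adjusted p = 0.0138, 0.00698 to 0.0762). Anxa5, the most abundant of the list, was not called (log2 fold change 0.24, edgeR adjusted p = 0.409). Transcripts of the fibrinogen chains and of prothrombin (F2) were not in the table.

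Among the other clade B serpins, 8 of 25 genes were in the table, 5 were tested and 0 were called in the edgeR test. Of these 5, 2 had an unadjusted p under 0.05, as did 4101 of all 11878 tested genes, and nothing is read from this count. Serpinb8, the neighbour of Serpinb2 on chromosome 1 beyond Serpinb10, rose from 73.9 ± 10.7 to 109.5 ± 12.2 CPM but by less than 2-fold (log2 fold change 0.57, SE 0.17, edgeR adjusted p = 0.045, 0.0474 to 0.157). Serpinb10 had 1.03 ± 0.343 CPM in young against 2.14 ± 0.669 CPM in aged samples (log2 fold change 1.06, edgeR adjusted p = 0.116). Serpinb2 thus exceeded these neighbours in the size of its log2 fold change. On chromosome 13, Serpinb1a was at 11.7 ± 2.77 CPM in young against 9.44 ± 2.31 CPM in aged samples (edgeR adjusted p = 0.439). Serpinb5, a clade B serpin of epithelia, had 31 counts in aged B and 0 to 2 in the other samples, beside the keratinocyte transcripts there. Of 8 tested serpins of other clades, 2 were called higher, Serpini1 among them, and 0 lower. Serpinh1 and Serpinf1 were not called, and both peaked in aged B, at 8.98 and 10.5 CPM, where the fibroblast marker sum was highest.

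The partners through which the urokinase receptor signals included 3 of 9 tested genes called higher and 0 lower. Itga5, the α5 integrin chain, rose from 49.3 ± 19.7 to 162 ± 16.4 CPM (log2 fold change 1.72, SE 0.26, edgeR adjusted p = 0.0045, 0.00128 to 0.0446). The formyl peptide receptor genes Fpr1 and Fpr2 rose from 80.1 ± 15.2 to 260.2 ± 55.6 CPM and from 28.4 ± 3.50 to 70.2 ± 24.5 CPM (log2 fold changes 1.70 and 1.31, edgeR adjusted p = 0.00223, 0.00235 to 0.0236, and 0.0101, 0.00384 to 0.0546). Fpr1 and Fpr2 are also expressed by neutrophils, whose marker sum was 717 to 1217 CPM in young against 926 to 1584 CPM in aged samples. The 13 neutrophil markers had a median log2 fold change of 0.38. It was highest for Cd177, Cxcr2, Lcn2 and Retnlg, at 1.62, 1.13, 0.99 and 0.85 (edgeR adjusted p = 0.0116, 0.0340, 0.0418 and 0.0393). Mmp9 (-0.54) and Ltf (-0.31) had negative values, and Ly6g (0.05) and S100a9 (0.20) small positive ones. The part of neutrophils in the Fpr1 and Fpr2 values was not tested. Itgam, the CD11b chain used in the sort, reached a log2 fold change of 0.99 (edgeR adjusted p = 0.00735) and stayed just under the 2-fold threshold, but it was called with DESeq2, with its size factors in edgeR, and without young B, young C, aged B or aged C. Itgb2, the most abundant of the list, was not called (log2 fold change 0.24, edgeR adjusted p = 0.347).

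Annexins other than Anxa2 were mostly not called. Anxa11 rose from 15.2 ± 4.71 to 31.7 ± 1.39 CPM (log2 fold change 1.06, edgeR adjusted p = 0.0152, 0.00292 to 0.0815), as 1 of 10 tested genes of that list, with 0 lower. Ahnak, which encodes a large partner of the annexin A2 complex, reached a log2 fold change of 0.94 (edgeR adjusted p = 0.0224) below the 2-fold threshold. Anxa1, Anxa4 and Anxa6 had every aged sample below every young one, with log2 fold changes of -0.40, -0.52 and -0.40, and were not called. In the same list 3 genes had the opposite order, Anxa11, Ahnak and Anxa7 (log2 fold change 0.23, not called). Of all tested genes, 19.0% had every aged sample below and 19.2% every aged sample above the young ones. Of the 5 tested proteases that clade B serpins inhibit, 1 was called higher and 1 lower. Prtn3, the gene of proteinase 3, rose from between 3.21 and 5.34 to between 5.41 and 10.5 CPM (log2 fold change 1.03, edgeR adjusted p = 0.0476, 0.023 to 0.170). Ctsk, the gene of cathepsin K, fell from 118 ± 48.6 to 27.6 ± 3.49 CPM (log2 fold change -2.10, SE 0.30, edgeR adjusted p = 0.00379, 0.00353 to 0.0295). Ctss fell from 4793 ± 627 to 2960 ± 545 CPM, with every aged sample below every young one, but by less than 2-fold (log2 fold change -0.70, edgeR adjusted p = 0.0437). Ctsl was the most abundant of the list and was not called (log2 fold change -0.20, edgeR adjusted p = 0.506). Gzmb, the target of the Serpinb9 product, had 9.81 CPM in aged A and 0.185 to 2.60 CPM in the other samples, and Ctsg, the target of the Serpinb6a product, was not in the table.

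**Figure D5:**
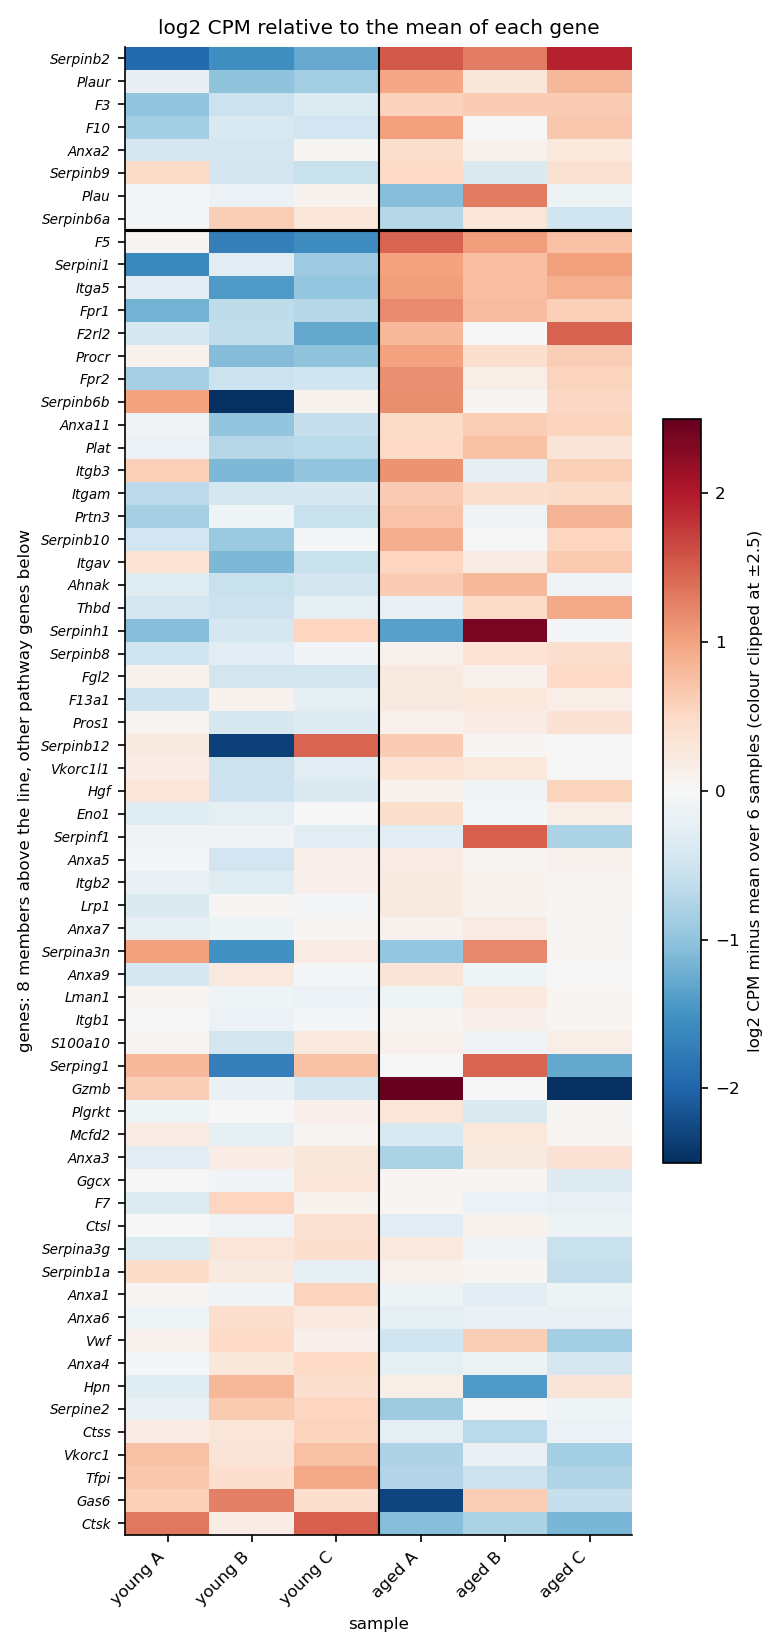
Log2 CPM of each gene minus its mean over the 6 samples, with samples in columns and genes in rows (8 tested members above the line, other tested pathway genes below in order of their log2 fold change), blue for below and red for above the mean and colours clipped at 2.5. Serpinb2 has the strongest contrast between the ages among the members, and Plau, Serpinh1 and Serpinf1 are highest in aged B.

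Several calls among these 14 pathway genes depended on single samples. Without young C, 3 of the 14 remained called (Itga5, Fpr1 and Ctsk), and without young B 7 remained. Without aged C 8 remained, without aged A 10, without aged B 12 and without young A 13. Itga5, Fpr1 and Ctsk kept an adjusted p-value under 0.05 in all 6 of these edgeR fits, Serpini1, Tfpi and Fpr2 in 5 and Plat and Prtn3 in 1.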

How the data were processed

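RNA-sequencing data of sorted Day 3 wound macrophages comprised 3 young and 3 aged samples. Per the labels and the methods, the authors aligned the reads to mm10 with STAR (2.7.3a in the submitters' processing notes), quantified them on Ensembl transcripts (release 102) in Partek Flow and deposited expected counts per gene without normalisation. Use of strand in counting is not given in the sources used here. A second deposited table, of the authors' own DESeq2 comparison (normalised counts, p-values and fold changes), was not used.

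The members and gene lists were chosen with earlier results of these data known. Expected counts (30.3% to 33.9% of genes per sample not whole) were rounded, since the design had named counts, and tested with edgeR 4.0.16 in R 4.3.3. TMM scaling, filterByExpr by age, a quasi-likelihood test without a block and Benjamini-Hochberg adjustment over 11878 genes were used. Genes were called with an absolute log2 fold change above 1 and an adjusted p-value below 0.05. The biological coefficient of variation was 0.239. Log2 CPM used a prior count of 2, and standard errors were derived from the log2 fold change and its F statistic. The exact interval of a ratio of counts covers counting error only. Coordinates are those of the deposited table in mm10, and exon lengths are from GENCODE vM21. Besides the members, the text names up to 3 called genes with the largest rise and 3 with the largest fall in each list, its most abundant tested gene, the 2 genes most like each member and the 2 most abundant genes of each marker list. Other genes named (Ly6g, S100a10, F7, Plgrkt, Itgam, Ahnak, Anxa1, Anxa4, Anxa6, Anxa7, Serpinb10, Serpinb1a, Serpinb5, Serpinh1, Serpinf1, Gzmb, Ctss, Adgre1, Cdh1, overlapping genes and further markers) were chosen after their values were seen. A result that the rule names is not reported here, although the counts include it. The fits were run on simulated counts with the same dispersion for every gene and differences in well-counted genes only. This run does not cover genes at few counts or single samples that stand apart. DESeq2 1.42.0, its size factors in edgeR, no filter, the set letter as a block, no fold threshold and leaving out each sample were the alternatives. Plots used Python 3.11.15, pandas 2.3.3 and matplotlib 3.10.9.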

Additional observations from a re-analysis of the deposited data

How the results depend on the processing

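With DESeq2, with its size factors in edgeR, with no filter on low counts and with no fold threshold, the same 4 members were called. Without a fold threshold, 2103 genes in place of 1044 were called. With each sample left out in turn, 213 (without young C) to 1503 (without young A) genes were called, 2 to 4 members, 3 to 12 other pathway genes higher and 2 to 5 lower. Of the log2 fold changes of the members under all alternatives, 79 kept their sign and 1, that of Plau without aged B (-0.49), changed it. This value moved by more than its SE, as did Serpinb9 without young A (0.75), Serpinb6a without aged B (-0.92) and Plaur without young A (1.66). None reversed a called direction. For the named pathway genes, 150 values kept their side of the threshold of 0.05 on the adjusted p-value and 40 lost it, mostly with a sample left out. The fold threshold was not part of this count. Without young B, Anxa11 kept its edgeR adjusted p under 0.05 (0.0453) but lost its call at a log2 fold change of 0.88. With no filter, F2rl2 (adjusted p = 0.0518), Prtn3 (0.0535) and Serpinb8 (0.0582) lost it in the edgeR test, and the cause was not tested.

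The set letters were not taken to pair the samples. The deviations of young and aged samples of the same letter correlated at 0.181 for A, -0.0206 for B and 0.114 for C across genes, and young B and young C each correlated best with a sample of another letter. With the set letter as a replicate block, 1056 genes were called, the same 4 members, and 9 other pathway genes higher and 4 lower, with F2rl2 (edgeR adjusted p = 0.0734) and Prtn3 (0.0740) lost and Gas6 gained. With 3 samples per age, depth limits statements mainly for Tfpi2 and for genes at few counts such as Serpinb10 and F2rl2.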
